A study of Homo sapiens with 12 samples.

Results

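The glycolysis and hypoxia genes described here are 36 genes chosen by name. They comprise 5 regulators of the hypoxia-inducible factor (HIF), 12 other targets of HIF, and 19 genes of glucose uptake, glycolysis and lactate export. Each gene was read at the probe set that carried its symbol alone and had the highest mean log2 signal over the 11 arrays compared. This gave 34 genes among the 19775 measured. CA9 and SLC16A3 were not analysed here. Of the 34, 32 had a mean signal of at least 100, and EGLN3 and CA12 were dimmer.

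HIF is a transcription factor made of an oxygen-labile alpha subunit, encoded by HIF1A or EPAS1, and a stable partner encoded by ARNT. When oxygen is present, prolyl hydroxylases such as EGLN1 and EGLN3 mark the alpha subunit for destruction, and when oxygen is scarce the pair binds short DNA elements and raises transcription of genes for glucose uptake, glycolysis, vessel growth and mitochondrial turnover. Glycolysis splits glucose to pyruvate, and LDHA turns pyruvate into lactate. Many tumour lines run this route even with oxygen at hand. The HIF1A protein is also a known client of the chaperone Hsp90.

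RNA was measured on Affymetrix arrays from cells labelled PC3, a line established from a human prostate cancer metastasis. The groups were Wee1 inhibitor II at 2.5 µM (3 arrays), 17-AAG at 40 nM (3 arrays), both drugs at these doses (3 arrays) and control, which received vehicle (3 arrays, of which 2 were compared). Wee1 inhibitor II blocks the kinase that restrains CDK1 before mitosis, and 17-AAG blocks Hsp90. The inhibitor was given 24 h ahead of 17-AAG, and cells were collected 48 h after 17-AAG. The sources used here give no oxygen level and do not say that replicates were separate cultures. Each p-value therefore reflects the spread among these arrays, and that spread may be technical.

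The PC3 label was not borne out on the 11 arrays. CTNNA1 and STAT3, which PC3 is known to lack by homozygous deletion, had signals of 2559 to 5040 and 819 to 1296. EPCAM and HOXB13, which mark prostate epithelium, stayed at or below 26.2 and 11.3, while the epithelial genes KRT18 and ESRP1 were at 453 to 650 and 142 to 728. The summed signal of 8 epithelial genes was 673 to 836 with Wee1 inhibitor II, 853 to 913 with 17-AAG, 1281 to 1364 with both drugs and 808 to 875 in control. Pigment cell genes were high, with MLANA at 2865 to 9916 and TYRP1 at 11119 to 15390. The summed signal of 11 pigment cell genes was 27548 to 30262 with Wee1 inhibitor II, 48073 to 53476 with 17-AAG, 52382 to 53521 with both drugs and 37675 to 39870 in control. Control replicate 2, set aside by the submitters for weak signal, was the opposite, with an epithelial sum of 6157, EPCAM at 1096, HOXB13 at 2087, CTNNA1 at 1.57 and MLANA at 2.67 (ESRP1, at 48.5, was lower there), and it entered no comparison. The summed signal of 5 fibroblast genes, in which LUM was the highest, was 410 to 466 with Wee1 inhibitor II, 1781 to 1897 with 17-AAG, 760 to 829 with both drugs and 1079 to 1205 in control, and that of the blood cell markers stayed at or below 89.0. The 3-prime minus 5-prime gap of the ACTB control probe sets, a measure of RNA quality, was 0.68 ± 0.09 with Wee1 inhibitor II, 0.96 ± 0.08 with 17-AAG, 0.96 ± 0.05 with both drugs and 0.69 ± 0.03 in control (log2, SD, n = 3, 3, 3 and 2). The same gap of GAPDH was -0.05 ± 0.04 with Wee1 inhibitor II, -0.04 ± 0.04 with 17-AAG, -0.01 ± 0.02 with both drugs and -0.06 ± 0.004 in control. The part of cell identity and RNA quality in the results below was not tested. In bulk RNA, fewer cells of a type and less RNA per cell cannot be told apart.

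With Wee1 inhibitor II alone, 19 of the 34 genes passed the test against control, 4 higher and 15 lower. A gene counts as risen or fallen where limma's test gave a Benjamini-Hochberg adjusted p under 0.05 over all genes. In the same comparison 24.9% of all genes and 44.8% of the 8278 genes with a mean signal of at least 100 were called, and 14.5% of all genes were called higher and 10.3% lower. The median log2 fold change was -0.32 over the 34 genes, against 0.12 over all genes and 0.00 over those brighter genes. The summed pigment cell signal given above was lower on these arrays than in control, but its genes did not move alike. TYR, at 3328 to 4188 with Wee1 inhibitor II and 1950 to 2377 in control, was higher. So were TYRP1 (11953 to 12440 against 11182 to 11433) and the dim OCA2 (21 to 23.3 against 4.27 to 14.3). SOX10 overlapped control, and the remaining pigment cell genes measured were lower without overlap. The count was 11 when control replicate 3 was left out. With a single control array left, that array was assumed to vary like the other groups.

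With 17-AAG alone, 8 of the 34 genes were called, 4 higher and 4 lower, where 16.7% of all genes (9.93% higher and 6.80% lower) and 32.4% of the brighter genes were called. The median of the 34 was -0.07, against 0.01 over all genes. The ACTB gap was larger on these arrays, 0.96 against 0.69 in control, and the GAPDH gap was -0.04 against -0.06. The count of 8 was the least stable of those against control. It was 2 without control replicate 1, 0 without control replicate 3 (11 at an unadjusted p under 0.05 in limma), 3 without 17-AAG replicate 3, 5 without 17-AAG replicate 1 and 5 without replicate 3 of both drugs. With each array centred on its median, 1 gene was higher and 3 were lower, in place of 4 and 4.

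With both drugs, 14 of the 34 genes were called against control, 2 higher and 12 lower, where 28.0% of all genes were called (16.7% higher and 11.3% lower) and 50.1% of the brighter ones. The median of the 34 was -0.09, against 0.11 over all genes. By class, 1 glycolytic gene rose and 9 fell of 18 with Wee1 inhibitor II, 2 other HIF targets rose and 5 fell of 11, and 1 HIF regulator rose and 1 fell of 5. With both drugs the glycolytic genes split into 1 higher and 8 lower, the other HIF targets into 1 higher and 3 lower, and the regulators into 0 higher and 1 lower. With 17-AAG the same classes split into 2 and 2, 1 and 2, and 1 and 0. For the counts of 0, limma's unadjusted p was under 0.05 for 3 regulators higher with both drugs and for 1 lower with 17-AAG. The median log2 fold changes with Wee1 inhibitor II were -0.38 for glycolytic genes, -0.35 for other HIF targets and 0.00 for HIF regulators. The difference between the classes was not tested.

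**Figure D1:**
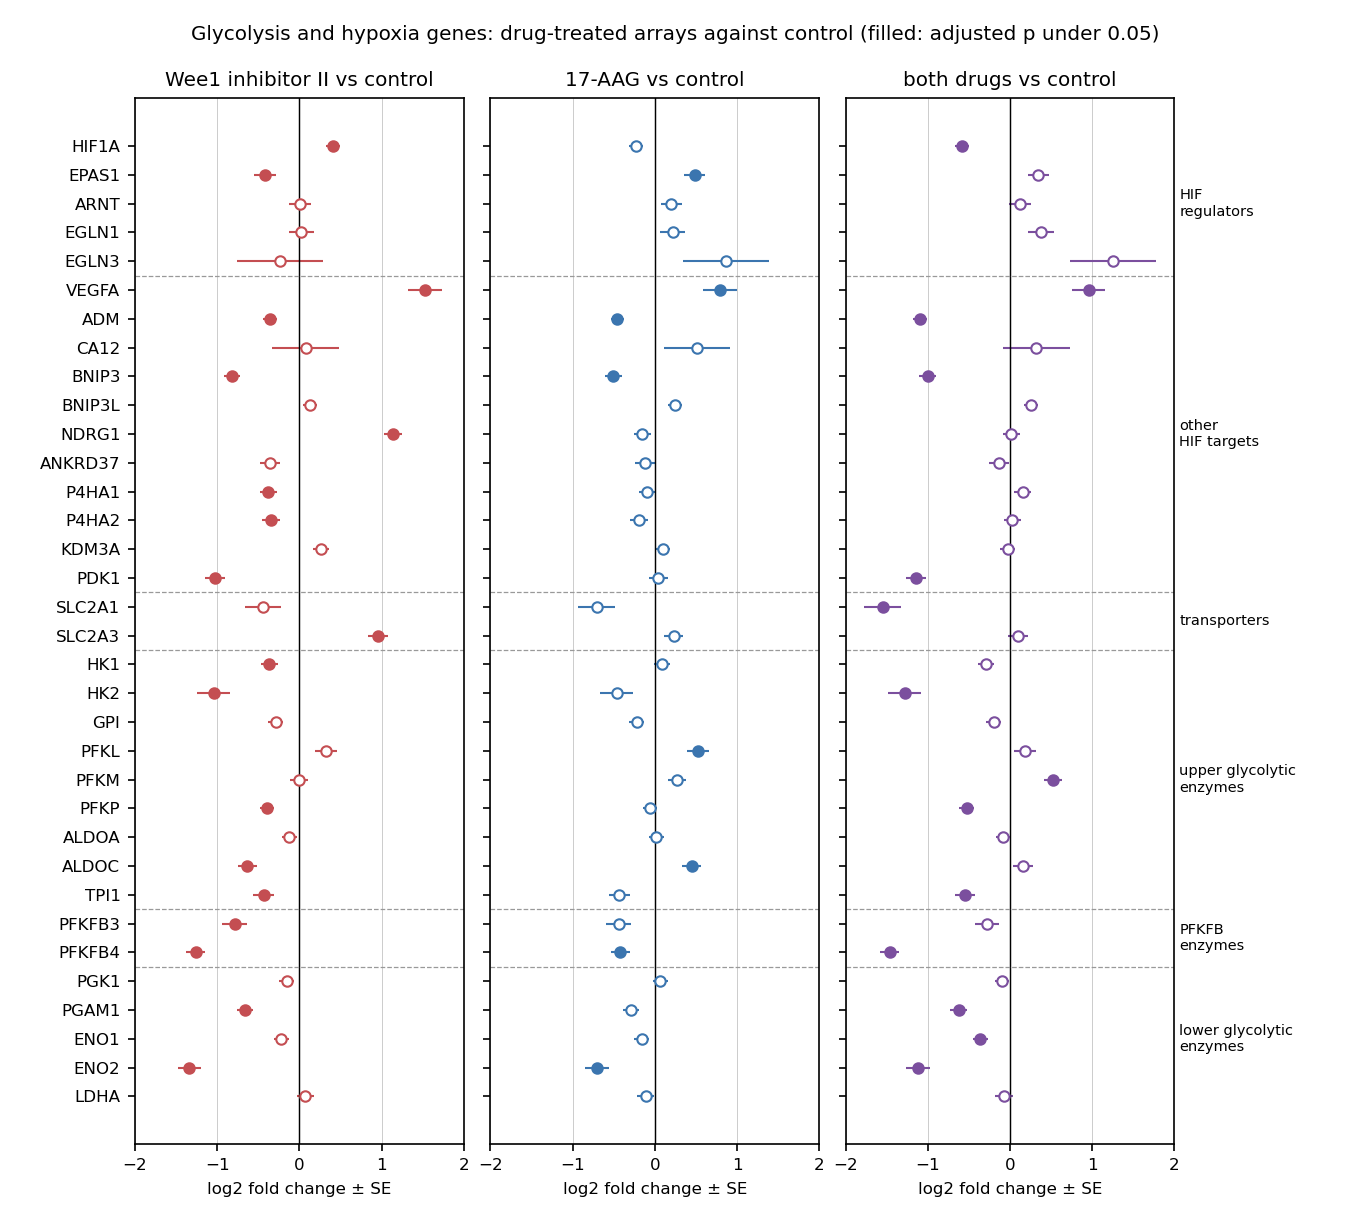
Log2 fold change of each of the 34 genes against control, with its standard error as a horizontal bar, for Wee1 inhibitor II, 17-AAG and both drugs from left to right. Filled points passed an adjusted p of 0.05. With Wee1 inhibitor II 4 genes were filled to the right and 15 to the left, and the lowest was ENO2 at -1.34.

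The genes of the HIF alpha subunits moved in opposite directions with Wee1 inhibitor II. HIF1A, the main alpha subunit of the acute hypoxia response, had signals of 4800, 5159 and 4747 with Wee1 inhibitor II, 2962, 3194 and 3325 with 17-AAG, 2466, 2366 and 2570 with both drugs, and 3713 and 3678 in control. All Wee1 inhibitor arrays lay above all control arrays, and all arrays of both drugs lay below those of every other group. HIF1A rose with Wee1 inhibitor II alone (log2 fold change 0.41 ± 0.09 SE, adjusted p = 0.00981) and fell with both drugs (-0.58 ± 0.09, adjusted p = 0.00139). With 17-AAG its arrays also lay below control, but the difference of -0.23 ± 0.09 did not pass (adjusted p = 0.119). The rise with Wee1 inhibitor II was lost without control replicate 1 or 3, at an adjusted p of up to 0.0575, and when each array was centred on its median. The fall with both drugs held with any 1 array left out.

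EPAS1, which encodes the alternative alpha subunit, had signals of 150, 138 and 164 with Wee1 inhibitor II, 306, 258 and 283 with 17-AAG, 281, 228 and 260 with both drugs, and 212 and 191 in control. The Wee1 inhibitor arrays lay below control and the 17-AAG arrays above it, with no overlap. EPAS1 fell with Wee1 inhibitor II (-0.42 ± 0.13, adjusted p = 0.0473) and rose with 17-AAG (0.49 ± 0.13, adjusted p = 0.0364). These calls were close to the threshold. The first was lost when any of 9 single arrays was left out (adjusted p up to 0.233), and the second for 6 (adjusted p up to 0.194). Between Wee1 inhibitor II and 17-AAG the difference was -0.90 ± 0.12 (adjusted p = 0.00123), and it held with any 1 array left out.

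The other regulators passed no test in any of the 7 comparisons. ARNT lay between 131 and 185 on the 11 arrays and EGLN1 between 394 and 644. EGLN3 was dim, at 5.34 to 23.4 with Wee1 inhibitor II, 20.3 to 31.4 with 17-AAG, 29.5 to 37.9 with both drugs and 12.5 to 15.4 in control. Its arrays with both drugs did not overlap control, but the difference did not pass (adjusted p = 0.121).

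VEGFA, the growth factor for blood vessels, had the largest difference from control among the 11 other HIF targets with Wee1 inhibitor II. Its signals were 1687, 1791 and 1696 with Wee1 inhibitor II, 1197, 749 and 1253 with 17-AAG, 1141, 1100 and 1249 with both drugs, and 602 and 596 in control. Every treated array was above both control arrays. VEGFA rose 2.88-fold with Wee1 inhibitor II (1.52 ± 0.20, adjusted p = 0.0012), by 0.80 ± 0.20 with 17-AAG (adjusted p = 0.0314) and by 0.96 ± 0.20 with both drugs (adjusted p = 0.00845). These are the largest differences among its 4 probe sets with a mean signal of at least 50. The smallest were 0.94 with Wee1 inhibitor II, 0.10 with 17-AAG and 0.36 with both drugs. Averaging the probe sets of VEGFA lost its call with 17-AAG. The call with 17-AAG was lost for 6 of the left-out arrays (adjusted p up to 0.13), and that with both drugs without control replicate 3 (adjusted p = 0.0504).

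NDRG1, a stress-responsive gene that HIF is known to induce, was called against control with Wee1 inhibitor II alone. It had signals of 1131, 1180 and 1127 with Wee1 inhibitor II, 475, 432 and 507 with 17-AAG, 553, 549 and 485 with both drugs, and 554 and 492 in control. The Wee1 inhibitor arrays stood apart from all others, while the remaining groups overlapped. NDRG1 rose by 1.13 ± 0.11 with Wee1 inhibitor II (adjusted p = 0.000253). The differences with 17-AAG (-0.15 ± 0.11, adjusted p = 0.423) and with both drugs (0.02 ± 0.11, adjusted p = 0.941) did not pass.

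ADM and BNIP3 were below control in every treated group. ADM, which encodes the vasodilator peptide adrenomedullin, had signals of 2284, 2119 and 2278 with Wee1 inhibitor II, 2111, 1954 and 2171 with 17-AAG, 1369, 1316 and 1320 with both drugs, and 2789 and 2908 in control. BNIP3, a receptor for the removal of mitochondria, had signals of 1137, 1309 and 1164 with Wee1 inhibitor II, 1627, 1473 and 1394 with 17-AAG, 1083, 1055 and 1039 with both drugs, and 2052 and 2188 in control. No treated array of either gene reached the control arrays, and for both genes the arrays with both drugs were the lowest. ADM fell by 0.36 ± 0.08 with Wee1 inhibitor II (adjusted p = 0.0143), by 0.46 ± 0.08 with 17-AAG (adjusted p = 0.00793) and by 1.09 ± 0.08 with both drugs (adjusted p = 5.99e-05). BNIP3 fell by 0.82 ± 0.10 with Wee1 inhibitor II (adjusted p = 0.000804), by 0.50 ± 0.10 with 17-AAG (adjusted p = 0.0115) and by 1.00 ± 0.10 with both drugs (adjusted p = 0.000207). Without control replicate 3 both calls with 17-AAG were lost, at adjusted p-values of up to 0.0563 for ADM and 0.0792 for BNIP3. The ADM call with Wee1 inhibitor II was lost without control replicate 1 or 3 (adjusted p up to 0.0891).

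PDK1, the pyruvate dehydrogenase kinase that keeps pyruvate out of mitochondria, divided the groups by Wee1 inhibitor II. Its signals were 260, 255 and 287 with Wee1 inhibitor II, 569, 611 and 512 with 17-AAG, 250, 228 and 265 with both drugs, and 590 and 504 in control. The arrays with the inhibitor, with or without 17-AAG, did not overlap those without it. PDK1 fell by 1.03 ± 0.12 with Wee1 inhibitor II (adjusted p = 0.000659) and by 1.14 ± 0.12 with both drugs (adjusted p = 0.000264). The difference with 17-AAG was 0.05 ± 0.12 (adjusted p = 0.861).

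P4HA1 and P4HA2, catalytic subunits of the enzyme that hydroxylates collagen, changed less. P4HA1 had signals of 767, 721 and 848 with Wee1 inhibitor II, 900, 1009 and 944 with 17-AAG, 1183, 1162 and 1041 with both drugs, and 996 and 1028 in control. P4HA2 had signals of 841, 752 and 707 with Wee1 inhibitor II, 788, 931 and 845 with 17-AAG, 1034, 955 and 983 with both drugs, and 984 and 958 in control. The Wee1 inhibitor arrays were below control for both genes, by 0.38 ± 0.10 (adjusted p = 0.0288) for P4HA1 and 0.35 ± 0.11 (adjusted p = 0.0477) for P4HA2. The P4HA1 call was lost for 4 left-out arrays and the P4HA2 call for 9, at adjusted p-values of up to 0.135 and 0.183. BNIP3L, ANKRD37, KDM3A and CA12 passed no test in any comparison. BNIP3L, the paralog of BNIP3, lay between 1428 and 1795, ANKRD37 between 255 and 361, and the histone demethylase KDM3A between 748 and 1018. CA12, a carbonic anhydrase, was at 10.6 to 24.1.

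**Figure D2:**
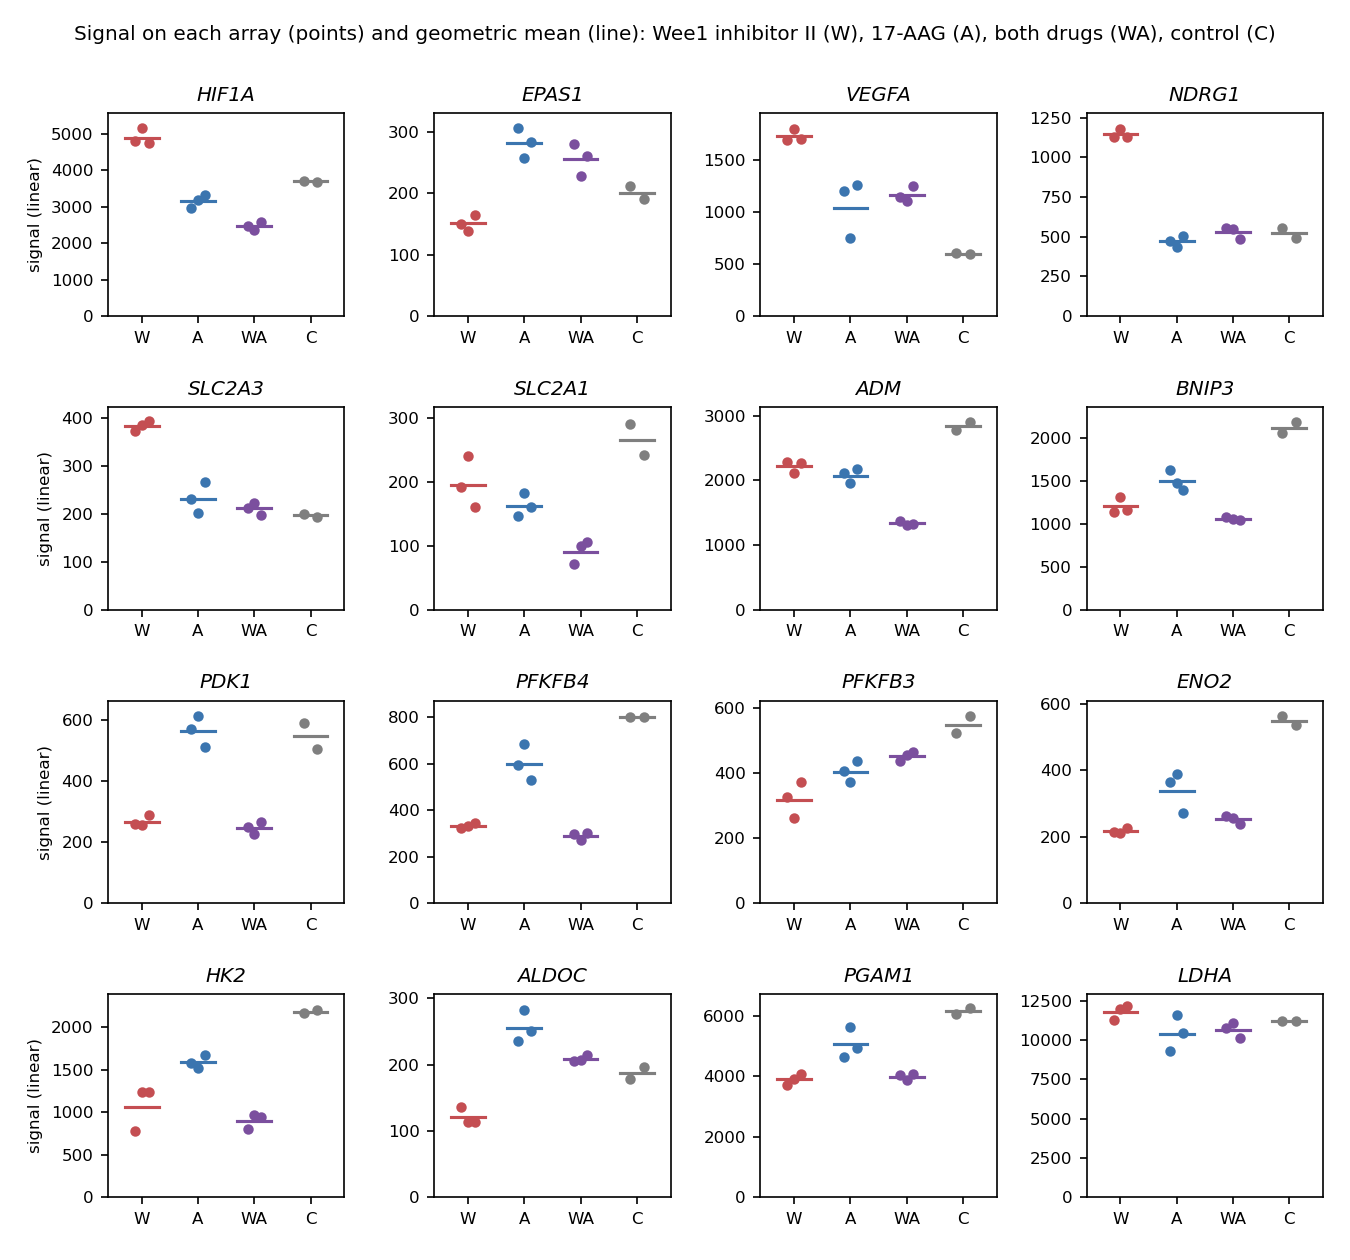
Signal (linear scale, starting at 0) of 16 of the genes on each array, with the geometric mean of each group as a line, for Wee1 inhibitor II (W), 17-AAG (A), both drugs (WA) and control (C). NDRG1 and SLC2A3 were high on the W arrays alone, PDK1 and PFKFB4 were low on the W and WA arrays, and LDHA was at 9283 to 12152 on all of them.

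The glucose transporters were called in different groups. SLC2A1 encodes the widespread transporter GLUT1 and SLC2A3 the high-affinity transporter GLUT3. SLC2A1 had signals of 192, 241 and 161 with Wee1 inhibitor II, 147, 183 and 161 with 17-AAG, 71.4, 99.0 and 106 with both drugs, and 291 and 242 in control. SLC2A3 had signals of 372, 385 and 392 with Wee1 inhibitor II, 231, 201 and 265 with 17-AAG, 212, 223 and 198 with both drugs, and 200 and 194 in control. SLC2A1 was lowest with both drugs, where no array overlapped another group, and SLC2A3 was highest with Wee1 inhibitor II, where again no array overlapped. SLC2A1 fell by 1.55 ± 0.22 with both drugs (adjusted p = 0.00128), while its differences of -0.45 ± 0.22 with Wee1 inhibitor II (adjusted p = 0.206) and -0.71 ± 0.22 with 17-AAG (adjusted p = 0.0684) did not pass. SLC2A3 rose by 0.96 ± 0.12 with Wee1 inhibitor II (adjusted p = 0.000886). Its differences with 17-AAG and with both drugs, 0.23 and 0.10, did not pass (adjusted p = 0.26 and 0.64).

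Among the upper enzymes, which carry glucose to triose phosphates, 5 of 9 fell with Wee1 inhibitor II and none rose (1 was higher at an unadjusted p under 0.05 in limma). That is 55.6% called, beside 24.9% of all genes (10.3% lower) and 44.8% of the brighter genes. HK2, the inducible hexokinase, had signals of 780, 1240 and 1238 with Wee1 inhibitor II, 1577, 1516 and 1671 with 17-AAG, 799, 971 and 941 with both drugs, and 2166 and 2204 in control. All treated arrays were below control. HK2 fell by 1.04 ± 0.20 with Wee1 inhibitor II (adjusted p = 0.00666) and by 1.28 ± 0.20 with both drugs (adjusted p = 0.00194), and its difference of -0.46 ± 0.20 with 17-AAG did not pass (adjusted p = 0.177). These values are from the brightest HK2 probe set. The dimmer HK2 sets described below went the other way, by up to 1.03 with Wee1 inhibitor II and 1.40 with both drugs. HK1, the housekeeping hexokinase, had signals of 1152, 942 and 1111 with Wee1 inhibitor II, 1446, 1499 and 1427 with 17-AAG, 1108, 1089 and 1161 with both drugs, and 1340 and 1403 in control. The arrays with the inhibitor lay below those without it. HK1 fell by 0.37 ± 0.10 with Wee1 inhibitor II (adjusted p = 0.0308), a call lost for 4 left-out arrays (adjusted p up to 0.15). With both drugs the difference from control was -0.29 ± 0.10 (adjusted p = 0.0644).

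The 3 phosphofructokinases, which commit sugar to glycolysis, did not move alike. PFKP, the platelet form, had signals of 1711, 1706 and 1612 with Wee1 inhibitor II, 2030, 2216 and 2115 with 17-AAG, 1614, 1485 and 1489 with both drugs, and 2106 and 2309 in control. PFKM, the muscle form, had signals of 1649, 1468 and 1603 with Wee1 inhibitor II, 1877, 1807 and 2029 with 17-AAG, 2352, 2261 and 2167 with both drugs, and 1438 and 1731 in control. PFKL, the liver form, had signals of 145, 177 and 168 with Wee1 inhibitor II, 171, 208 and 186 with 17-AAG, 167, 137 and 141 with both drugs, and 131 and 129 in control. PFKP was low where the inhibitor was given, and PFKM was highest with both drugs. PFKP fell with Wee1 inhibitor II (-0.40 ± 0.09, adjusted p = 0.0113) and with both drugs (-0.53 ± 0.09, adjusted p = 0.00228). PFKM rose with both drugs (0.52 ± 0.11, adjusted p = 0.00777) and PFKL with 17-AAG (0.53 ± 0.13, adjusted p = 0.0294). The PFKP call with Wee1 inhibitor II was lost without control replicate 3 (adjusted p = 0.0861), the PFKM call without control replicate 1 (adjusted p = 0.0643), and the PFKL call for 4 left-out arrays (adjusted p up to 0.131).

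The aldolase pair split as well at the probe sets used. ALDOC, the brain form of aldolase, had signals of 136, 113 and 114 with Wee1 inhibitor II, 236, 283 and 251 with 17-AAG, 206, 207 and 214 with both drugs, and 178 and 197 in control. No 2 of these groups overlapped. ALDOC fell by 0.63 ± 0.12 with Wee1 inhibitor II (adjusted p = 0.00548) and rose by 0.45 ± 0.12 with 17-AAG (adjusted p = 0.034), and the call with 17-AAG was lost for 7 left-out arrays (adjusted p up to 0.187). ALDOA, the general form, lay between 6903 and 8201 at its brightest probe set and passed no test there. Over its 3 probe sets with a mean signal of at least 50, the difference with Wee1 inhibitor II ran from -0.57 to -0.12. TPI1, which interconverts the triose phosphates, had signals of 4912, 4586 and 4716 with Wee1 inhibitor II, 4387, 5390 and 4552 with 17-AAG, 4181, 4293 and 4700 with both drugs, and 5794 and 7091 in control. All treated arrays lay below both control arrays. Over the 3 TPI1 probe sets with a mean signal of at least 50, the difference with both drugs ran from -0.99 to -0.35. TPI1 fell by 0.44 ± 0.13 with Wee1 inhibitor II (adjusted p = 0.0371) and by 0.55 ± 0.13 with both drugs (adjusted p = 0.0123). The first call was lost for 7 left-out arrays (adjusted p up to 0.241) and the second without control replicate 3 (adjusted p = 0.101). GPI, which isomerises glucose phosphate, was at 1492 to 1927 and passed no test.

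PFKFB3 and PFKFB4 make and break the sugar bisphosphate that switches phosphofructokinase on, and both fell with Wee1 inhibitor II. PFKFB4 had signals of 323, 332 and 346 with Wee1 inhibitor II, 593, 685 and 531 with 17-AAG, 296, 274 and 303 with both drugs, and 802 and 800 in control. PFKFB3 had signals of 328, 263 and 374 with Wee1 inhibitor II, 407, 372 and 439 with 17-AAG, 437, 456 and 467 with both drugs, and 523 and 578 in control. For both genes every treated array was below control, but the lowest geometric mean was with both drugs for PFKFB4 (291) and with Wee1 inhibitor II alone for PFKFB3 (318). PFKFB4 fell by 1.26 ± 0.11 with Wee1 inhibitor II (adjusted p = 0.000217), by 0.42 ± 0.11 with 17-AAG (adjusted p = 0.0391) and by 1.46 ± 0.11 with both drugs (adjusted p = 6.69e-05). The call with 17-AAG was lost for 10 of the 11 left-out arrays (adjusted p up to 0.151). PFKFB3 fell by 0.79 ± 0.15 with Wee1 inhibitor II (adjusted p = 0.00616), and its differences of -0.44 with 17-AAG (adjusted p = 0.0867) and -0.28 with both drugs (adjusted p = 0.226) did not pass.

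Of the 5 lower enzymes, which carry triose phosphates to lactate, ENO2 and PGAM1 fell with Wee1 inhibitor II. That is 40% called, beside 24.9% of all genes and 44.8% of the brighter genes. ENO2, the neuronal enolase, had signals of 214, 213 and 226 with Wee1 inhibitor II, 364, 388 and 273 with 17-AAG, 262, 256 and 240 with both drugs, and 563 and 536 in control. PGAM1, the phosphoglycerate mutase, had signals of 3714, 3920 and 4075 with Wee1 inhibitor II, 4628, 5653 and 4943 with 17-AAG, 4050, 3868 and 4066 with both drugs, and 6062 and 6268 in control. No treated array of either gene reached control. ENO2 fell by 1.34 ± 0.14 with Wee1 inhibitor II (adjusted p = 0.000475), by 0.70 ± 0.14 with 17-AAG (adjusted p = 0.0134) and by 1.12 ± 0.14 with both drugs (adjusted p = 0.000722). PGAM1 fell by 0.66 ± 0.10 with Wee1 inhibitor II (adjusted p = 0.00218) and by 0.63 ± 0.10 with both drugs (adjusted p = 0.00212). The ENO2 call with 17-AAG was lost without control replicate 1 or 3 (adjusted p up to 0.0828).

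ENO1, the general enolase, had signals of 6724, 7051 and 6639 with Wee1 inhibitor II, 6487, 7740 and 7128 with 17-AAG, 6134, 6217 and 6144 with both drugs, and 7899 and 7942 in control. All treated arrays lay below control. These values are from the brightest of 3 probe sets with a mean signal of at least 50, and it differed least from control. Over the 3 sets the difference ran from -0.68 to -0.22 with Wee1 inhibitor II and from -0.62 to -0.16 with 17-AAG. With both drugs it ran from -0.97 to -0.36. The tests that follow are of the brightest set. ENO1 fell by 0.36 ± 0.09 with both drugs (adjusted p = 0.0173), a call lost without control replicate 1 or 3 (adjusted p up to 0.0831), and passed no other test. LDHA had signals of 11278, 11971 and 12152 with Wee1 inhibitor II, 9283, 11600 and 10475 with 17-AAG, 10804, 11103 and 10124 with both drugs, and 11240 and 11226 in control. The Wee1 inhibitor arrays lay just above control, the arrays of both drugs just below it, and the 17-AAG arrays on either side. The differences from control were 0.07 ± 0.11 with Wee1 inhibitor II, -0.11 ± 0.11 with 17-AAG and -0.07 ± 0.11 with both drugs (adjusted p = 0.71, 0.577 and 0.686).

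Probe sets of 1 gene did not always move alike. Where a called gene had further probe sets with a mean signal of at least 50, all of them had the same sign in 26 of 29 results, and the other 3 were HK2. The brightest HK2 probe set fell with Wee1 inhibitor II, while the next had geometric means of 167 with the inhibitor and 81.4 in control, and the dimmest 95.6 with the inhibitor and 47.0 in control. Tested among all probe sets, these differed by 1.03 (adjusted p = 0.0242) and 1.02 (adjusted p = 0.00454), opposite to the -1.04 of the brightest set. PGK1, the phosphoglycerate kinase, was not called at its brightest probe set, where the difference with Wee1 inhibitor II was -0.15 (adjusted p = 0.385). Each of its 4 dimmer sets with a signal of at least 50 fell with the inhibitor. The second brightest, for example, was at 2841 with the inhibitor and 4363 in control (-0.62, adjusted p = 0.00516), and the third at 1421 with the inhibitor and 2635 in control (-0.89, adjusted p = 0.00226). The call of PGK1 therefore depended on the probe set, and that of HK2 reversed with it.

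**Figure D3:**
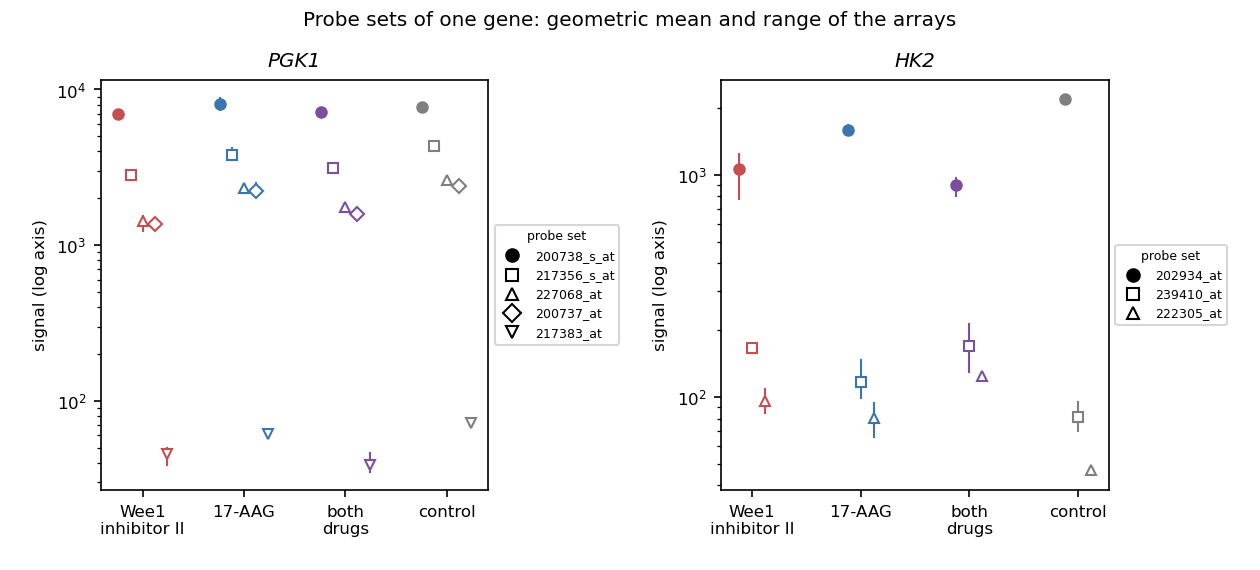
Geometric mean signal (log axis) of each probe set of PGK1 and HK2 by group, with the range of the arrays as a vertical bar; the filled circle is the brightest set, used in the comparisons. The dimmer PGK1 sets were lower with Wee1 inhibitor II than in control, whereas the 2 dimmer HK2 sets, at 167 and 95.6 with the inhibitor and 81.4 and 47.0 in control, went against the brightest one.

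The stretch of 250 bases before an annotated transcription start is shown for 3 genes that fell with Wee1 inhibitor II and for LDHA, which passed no test. Of the 3, HK2 fell at its brightest probe set only. The stretch is shown because HIF binds the core letters ACGTG and GCGTG. Both were searched on both strands, and overlapping matches were joined into 1 stretch, in capitals below. The sequences are from RefSeq on GRCh38.p14, read 5′ to 3′ in the direction of the gene, and they were chosen after the values were seen. For HK2 and LDHA, with 2 windows each in the table, the window with the most stretches is shown, or the first where equal. They lie at chr10:131981924-131982173 (minus strand) for BNIP3, chr2:74834920-74835169 (plus) for HK2, chr3:48556804-48557053 (minus) for PFKFB4 and chr11:18394313-18394562 (plus) for LDHA. The HK2 and PFKFB4 windows lie inside the annotated genes, which span chr2:74834127-74893359 and chr3:48517684-48563136.
BNIP3: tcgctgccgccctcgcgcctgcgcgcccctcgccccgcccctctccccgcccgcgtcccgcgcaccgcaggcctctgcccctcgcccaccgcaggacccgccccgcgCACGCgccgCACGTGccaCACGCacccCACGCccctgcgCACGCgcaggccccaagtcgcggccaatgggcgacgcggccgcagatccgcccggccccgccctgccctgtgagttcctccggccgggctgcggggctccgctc
HK2: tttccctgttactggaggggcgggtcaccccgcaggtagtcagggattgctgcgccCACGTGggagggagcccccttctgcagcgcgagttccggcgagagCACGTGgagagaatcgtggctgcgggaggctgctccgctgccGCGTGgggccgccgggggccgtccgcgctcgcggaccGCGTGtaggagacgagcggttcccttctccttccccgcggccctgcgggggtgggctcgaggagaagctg
PFKFB4: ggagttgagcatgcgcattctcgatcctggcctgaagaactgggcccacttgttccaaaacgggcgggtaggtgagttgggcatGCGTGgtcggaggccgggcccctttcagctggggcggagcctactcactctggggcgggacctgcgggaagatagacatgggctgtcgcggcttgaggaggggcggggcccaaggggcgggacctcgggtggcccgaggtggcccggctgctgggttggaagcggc
LDHA: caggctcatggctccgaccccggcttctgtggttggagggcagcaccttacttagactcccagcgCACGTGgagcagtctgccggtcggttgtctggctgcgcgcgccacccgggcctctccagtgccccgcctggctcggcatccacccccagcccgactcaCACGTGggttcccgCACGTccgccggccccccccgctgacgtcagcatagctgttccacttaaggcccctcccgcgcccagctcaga

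BNIP3 held 5 stretches, HK2 4, PFKFB4 1 and LDHA 3. PGAM1 and P4HA2, which also fell with Wee1 inhibitor II, and SLC2A1, which fell with both drugs, held 0 in their windows. The RefSeq table held 54 such windows for 30 of the genes, VEGFA, SLC2A3, BNIP3L and NDRG1 not among them, and 32 of the 54 (59.3%) had at least 1 match, against 43.2% of all 35116 windows. Of the 54, 7 (13.0%) had 3 or more stretches, against 5.44% of all windows. Some genes had more than 1 window, with 7 each for HK1 and PFKM, so the windows are not independent. Many of the genes were listed as HIF targets, which bears on these shares, and the difference was not tested. A match is a string of letters and does not show that HIF binds there.

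The difference made by Wee1 inhibitor II in the presence of 17-AAG was read from both drugs against 17-AAG alone, where 10 of the 34 genes were called, all lower, beside 19.3% of all genes (10.9% higher and 8.43% lower) and 34.9% of the brighter ones. This comparison shares no array with Wee1 inhibitor II against control. Of the 10 genes that fell with 17-AAG present and the 15 that fell without it, 8 were the same, which is 80.0% and 53.3% of the lists. Over all genes 786 were lower in both, 47.1% and 38.4% of the lists. The 8 were ADM, BNIP3, PDK1, HK1, HK2, PFKP, PFKFB4 and PGAM1. With 17-AAG present, the call of PGAM1 was lost for 5 left-out arrays, that of HK1 for 4 and that of HK2 for 2. The rest of the 8 held with any 1 array left out. Averaging all probe sets of a gene turned the sign of HK2 and PFKP in this comparison (0.12 and 0.10). PDK1 fell by 1.19 ± 0.11 in the presence of 17-AAG (adjusted p = 0.000271), beside 1.03 ± 0.12 without it. PFKFB4 fell by 1.04 ± 0.10 (adjusted p = 0.000362), beside 1.26 ± 0.11. HIF1A and SLC2A1 fell with both drugs against 17-AAG alone, by 0.36 ± 0.08 (adjusted p = 0.0137) and 0.84 ± 0.20 (adjusted p = 0.021). None of the 34 rose in the presence of 17-AAG, where 2 were higher at an unadjusted p under 0.05 in limma, while 4 rose without it. The count of 10 was 6 without replicate 1 of both drugs.

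The test of the difference itself, the interaction of both drugs (log2), called 9 of the 34 genes, 4 higher and 5 lower, where 11.8% of all genes (4.82% higher and 6.97% lower) and 23.1% of the brighter genes were called. HIF1A fell by 0.36 on top of 17-AAG, against a rise of 0.41 with Wee1 inhibitor II on its own, an interaction of -0.76 ± 0.12 (adjusted p = 0.0056). On top of 17-AAG the differences of VEGFA, NDRG1 and SLC2A3 were 0.16, 0.17 and -0.13 and did not pass, against rises of 1.52, 1.13 and 0.96 without it. Their interactions were -1.36 ± 0.27 (adjusted p = 0.0171), -0.97 ± 0.14 (adjusted p = 0.00516) and -1.09 ± 0.16 (adjusted p = 0.00518). Over the 4 VEGFA probe sets the interaction ran from -1.365 to -0.681. PFKFB3 and ENO2 had positive interactions, 0.95 ± 0.20 (adjusted p = 0.021) and 0.92 ± 0.19 (adjusted p = 0.0209) where the differences on top of 17-AAG, 0.16 and -0.42, did not pass. P4HA1 and P4HA2 were also positive, at 0.63 ± 0.14 (adjusted p = 0.0245) and 0.56 ± 0.14 (adjusted p = 0.0408), and PFKL was negative at -0.67 ± 0.18 (adjusted p = 0.0489). The calls of HIF1A, NDRG1 and SLC2A3 held with any 1 array left out. That of VEGFA was lost without control replicate 1 or 3 (adjusted p up to 0.0597), those of PFKFB3 and ENO2 for 3 left-out arrays each, and those of P4HA1, P4HA2 and PFKL for 8, 9 and 9. The count was 3 without control replicate 1 or control replicate 3.

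**Figure D4:**
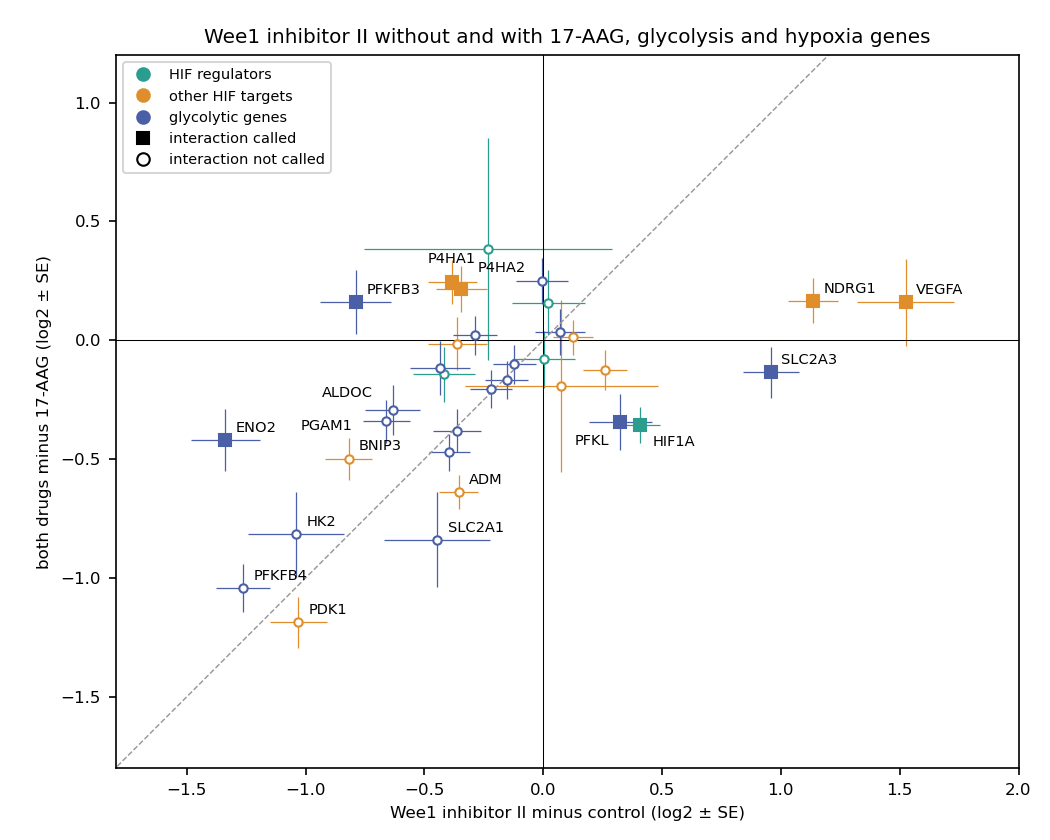
Log2 fold change of each gene for Wee1 inhibitor II minus control (x axis) and for both drugs minus 17-AAG (y axis), each with its standard error, and a dashed line where they are equal. Squares passed the interaction test: HIF1A, VEGFA, NDRG1, SLC2A3 and PFKL lie below the line and PFKFB3, ENO2, P4HA1 and P4HA2 above it. PDK1, PFKFB4 and HK2 (at its brightest probe set) are low on both axes.

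Both drugs against Wee1 inhibitor II alone gave the effect of 17-AAG on inhibited cells, with 6 of the 34 genes higher and 5 lower, where 14.1% of all genes (7.27% higher and 6.84% lower) and 27.1% of the brighter ones were called. HIF1A fell by 0.99 ± 0.08 (adjusted p = 0.000112), NDRG1 by 1.12 ± 0.09 (adjusted p = 0.000171), SLC2A3 by 0.86 ± 0.11 (adjusted p = 0.00121), SLC2A1 by 1.10 ± 0.20 (adjusted p = 0.00787) and ADM by 0.74 ± 0.07 (adjusted p = 0.000381). EPAS1, ALDOC, P4HA1, PFKM, PFKFB3 and P4HA2 rose, by 0.76, 0.79, 0.54, 0.52, 0.51 and 0.37. These held with any 1 array left out, except PFKFB3 and P4HA2, whose calls were lost for 9 and 8 arrays (adjusted p up to 0.115 and 0.114). This comparison shares no array with 17-AAG against control, and EPAS1 and ALDOC were higher in both, 2 of the 6 here and 2 of the 4 there. The single gene lower in both was ADM, 1 of 5 and 1 of 4. Over all genes the shared part was 35.2% and 25.8% of the higher lists and 26.7% and 26.8% of the lower lists.

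The single drugs were also set against each other. Wee1 inhibitor II against 17-AAG had 4 of the 34 genes higher and 9 lower, where 18.7% of all genes (10.2% higher and 8.52% lower) and 33.6% of the brighter ones were called. With each array centred on its median, 3 were higher and 17 lower. HIF1A (0.63 ± 0.08), NDRG1 (1.28 ± 0.09), SLC2A3 (0.73 ± 0.11) and VEGFA (0.73 ± 0.18) were higher with Wee1 inhibitor II, with adjusted p-values of 0.000936, 8.69e-05, 0.0024 and 0.0258. Among the 9 lower, ALDOC and PDK1 differed most, at -1.08 ± 0.11 and -1.08 ± 0.11 (adjusted p = 0.000329 and 0.000377). The VEGFA call was lost for 3 left-out arrays (adjusted p up to 0.0765), that of BNIP3 for 9, and those of PFKP and PGAM1 for 3 each.

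Genes around the listed ones were counted from lists of their pathways. Of 13 further glycolysis genes, 1 rose and 4 fell with Wee1 inhibitor II, 2 rose and 1 fell with 17-AAG, and 3 rose and 4 fell with both drugs. The shares called were 38.5%, 23.1% and 53.8%, beside 24.9%, 16.7% and 28.0% of all genes and 44.8%, 32.4% and 50.1% of the brighter genes. BPGM, which makes the effector that loosens oxygen from haemoglobin, fell by 0.83 ± 0.10 with Wee1 inhibitor II (adjusted p = 0.000891), by 0.82 ± 0.10 with 17-AAG (adjusted p = 0.00208) and by 0.71 ± 0.10 with both drugs (adjusted p = 0.00133). PFKFB2, a further enzyme of the phosphofructokinase switch, rose by 0.42 with Wee1 inhibitor II, 0.98 with 17-AAG and 0.89 with both drugs, opposite to PFKFB4. HKDC1, a hexokinase relative, had signals of 60.2, 62.8 and 47.6 with both drugs and at most 12.1 on every other array, below the array medians of 17.7 to 23.1. It was called higher with both drugs (adjusted p = 0.000806), and no size is given, since its control signals were 3.40 and 2.89. TIGAR, a phosphatase that lowers the same sugar bisphosphate, fell by 0.71 ± 0.08 with Wee1 inhibitor II (adjusted p = 0.000659).

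The routes that branch from glycolysis were counted in the same way. Of 6 pentose phosphate genes, 2 rose and 1 fell with Wee1 inhibitor II, 2 rose and 0 fell with 17-AAG (0 also at an unadjusted p under 0.05 in limma), and 2 rose and 2 fell with both drugs. The shares called were 50%, 33.3% and 66.7%, beside 44.8%, 32.4% and 50.1% of the brighter genes. PGD and PGLS, of the oxidative branch, rose with Wee1 inhibitor II by 0.83 ± 0.07 (adjusted p = 0.000204) and 0.94 ± 0.10 (adjusted p = 0.000398). TKT, of the branch that returns carbon to glycolysis, had geometric means of 3401 with Wee1 inhibitor II, 4879 with 17-AAG, 2556 with both drugs and 3406 in control, so that it rose with 17-AAG and fell with both drugs. Of 12 genes of pyruvate entry into mitochondria, 0 rose (1 at an unadjusted p under 0.05 in limma) and 6 fell with Wee1 inhibitor II, 3 rose and 1 fell with 17-AAG, and 2 rose and 4 fell with both drugs. The shares called were 50%, 33.3% and 50%, near those of the brighter genes. MPC1, part of the mitochondrial pyruvate carrier, fell by 1.12 ± 0.11 with Wee1 inhibitor II (adjusted p = 0.000305), in the same arrays as PDK1. PDK4, a further pyruvate dehydrogenase kinase, had signals of 36.1, 40.4 and 38.3 with Wee1 inhibitor II, 208, 209 and 192 with 17-AAG, 58.2, 67.4 and 57.1 with both drugs, and 40.5 and 28.8 in control. It rose by 2.57 ± 0.15 with 17-AAG (adjusted p = 0.000226), where PDK1 did not pass.

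Of 10 further genes that control HIF, 4 rose with Wee1 inhibitor II, 1 with 17-AAG and 6 with both drugs, and 0 fell, also at an unadjusted p under 0.05 in limma. The shares called were 40%, 10% and 60%, beside 44.8%, 32.4% and 50.1% of the brighter genes, and 14.5%, 9.93% and 16.7% of all genes were called higher. ARNT2, a relative of ARNT, rose by 1.26 ± 0.12 with Wee1 inhibitor II (adjusted p = 0.000274), by 1.08 ± 0.12 with 17-AAG (adjusted p = 0.00133) and by 2.02 ± 0.12 with both drugs (adjusted p = 2.28e-05). CITED2, which competes with HIF for its coactivator, rose by 1.03 ± 0.15 with Wee1 inhibitor II (adjusted p = 0.00196) and by 0.73 ± 0.15 with both drugs (adjusted p = 0.00765). Of 29 further HIF targets, 7 rose and 11 fell with Wee1 inhibitor II, 8 rose and 5 fell with 17-AAG, and 7 rose and 13 fell with both drugs. The shares called were 62.1%, 44.8% and 69%, beside 24.9%, 16.7% and 28.0% of all genes and 44.8%, 32.4% and 50.1% of the brighter ones. MXI1, an antagonist of MYC, rose by 0.62 with Wee1 inhibitor II, 0.74 with 17-AAG and 1.28 with both drugs. TFRC, the transferrin receptor, fell by 1.84 with Wee1 inhibitor II, 1.02 with 17-AAG and 1.44 with both drugs. TMEM45A had signals of 459, 522 and 545 with Wee1 inhibitor II, 310, 377 and 323 with 17-AAG, 626, 581 and 583 with both drugs, and 1153 and 1112 in control, and fell in all 3 comparisons.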

How the data were processed

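The deposited values are intensities, 1 per probe set and array. Per the labels' protocols, RNA was biotin labelled by 3-prime in vitro transcription and hybridised to Affymetrix arrays, and Partek 6.5 and RMA appear in the submitters' processing notes. The values run from 0.0212 to 17908 on a linear scale, and their mean is 150 on each array once 2% is trimmed at both ends. RMA output would be on a log2 scale, and which step made the deposited values is not given in the sources used here. They were log2 transformed here without further normalisation or pseudocount. The number of arrays limits the precision.

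Of 54675 probe sets, 62 were array controls, 41091 carried 1 symbol, 1801 several and 11721 none. limma 3.58.1 in R 4.3.3 fitted a mean per group on 11 arrays (7 residual degrees of freedom), and errors are its standard errors. A signal of a group is a geometric mean. The fit was tested on simulated data, with no result given here. The 7 comparisons set the treated groups against control, both drugs against either drug, the single drugs against each other, and the interaction (both drugs minus 17-AAG) minus (Wee1 inhibitor II minus control).

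The genes, the pathway and marker lists and the rules were chosen with earlier results of these data known. All 34 genes are accounted for, and values on every array are given for those called against control or in the interaction and for LDHA. At most 4 genes of smallest p were named per pathway list. The share of calls among genes with a mean signal of at least 100 and the promoters shown were chosen after seeing the data. Alternatives were other normalisations, filters, probe set rules and fits, and each array left out in turn.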

Additional observations from a re-analysis of the deposited data

Results flagged for a closer look

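The difference made by Wee1 inhibitor II was not the same with and without 17-AAG, by the interaction test, for 9 of the listed genes. The interaction, (both drugs minus 17-AAG) minus (Wee1 inhibitor II minus control) in log2 units, was -0.76 for HIF1A, -1.36 for VEGFA, -0.97 for NDRG1, -1.09 for SLC2A3 and -0.67 for PFKL. It was 0.63 for P4HA1, 0.56 for P4HA2, 0.95 for PFKFB3 and 0.92 for ENO2. Among the pathway genes named it was 0.94 for BPGM and 0.50 for TIGAR in glycolysis, and -0.62 for PGLS, -0.44 for PGD and -0.93 for TKT in the pentose phosphate route. In pyruvate entry it was -1.91 for PDK4 and -0.78 for PDP1. Among further HIF targets it was 1.99 for TMEM45A, 0.62 for JMJD6 and 1.42 for TFRC. TMEM45A fell by 1.76 with 17-AAG and by 0.93 with both drugs.

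EPAS1 was 1038 on control replicate 2, the array that entered no comparison, against 191 and 212 on the other control arrays, which is 4.89-fold above the higher of them.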

How the results depend on the processing

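The 84 calls of the listed genes were recomputed under 1839 combinations with an alternative, of which 1489 kept the call and its direction, 339 lost it and 11 changed sign. No call was lost when signals below 32 were set to 32, or when the dimmest 40% of genes were left out. The called genes had signals of at least 71.4 on the 11 arrays, so neither setting changed their fold changes. Calls kept there say little about stability. With trended and robust empirical Bayes no call was lost, and 1 was lost with array weights. Including control replicate 2, whose marker genes differed from those of the 11 arrays, gave 63 of the lost calls and 6 of the sign changes. With this array included the sign turned for ADM and P4HA2 with Wee1 inhibitor II (0.869 and 0.094), for EPAS1, ADM and PFKFB4 with 17-AAG (-0.304, 0.769 and 0.028) and for ADM with both drugs (0.13). Averaging all probe sets of a gene turned it for HK2 with Wee1 inhibitor II and both drugs against control (0.34 and 0.40), for HK2 and PFKP with both drugs against 17-AAG (0.12 and 0.10), and for PFKP between the single drugs (0.043). The cause was not tested.

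Counts below are of the listed genes and of all genes. With control replicate 2 included they were 5 and 1268 for Wee1 inhibitor II, 0 and 480 for 17-AAG and 5 and 1856 for both drugs against control. They were 1 and 542 for both drugs against 17-AAG, 2 and 389 against Wee1 inhibitor II, 2 and 479 between the single drugs, and 0 and 119 for the interaction. At an unadjusted p under 0.05 in limma, the counts of 0 were 6 for 17-AAG and 3 for the interaction. Averaging probe sets gave 12 and 3215 for Wee1 inhibitor II, 3 and 1768 for 17-AAG, 5 and 2370 for both drugs against 17-AAG, and 7 and 1664 against Wee1 inhibitor II. All genes numbered 2283 between the single drugs and 1099 for the interaction. With every probe set tested 4 listed genes and 4348 probe sets passed for 17-AAG, and 14 listed genes and 8612 probe sets for both drugs. A fit of the compared arrays alone, with fewer samples, gave 8 and 2461 for Wee1 inhibitor II, 7 and 2307 between the single drugs, and 0 and 0 for 17-AAG (12 and 4816 at an unadjusted p under 0.05 in limma). At an adjusted p under 0.01 the counts were 12 and 2816 for Wee1 inhibitor II, 1 and 1493 for 17-AAG, 5 and 1932 for both drugs against 17-AAG, 8 and 1966 between the single drugs, and 3 and 828 for the interaction. All genes then numbered 3592 for both drugs against control and 1487 against Wee1 inhibitor II. For 17-AAG, 14 listed genes and 4431 of all genes passed without the dimmest 40%, and 17 and 4375 with trended and robust empirical Bayes. For the interaction, 10 listed genes and 3558 of all genes passed without the dimmest 40%.

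Centring each array on its median moved the median of all genes by -0.22 for Wee1 inhibitor II and for both drugs by -0.21. The listed genes and all genes called were 4 and 2578 for 17-AAG and 20 and 3510 between the single drugs. All genes then split into 1587 higher and 3064 lower for Wee1 inhibitor II in place of 2877 and 2045, 1999 and 3126 for both drugs in place of 3306 and 2233, 917 and 2481 for both drugs against 17-AAG in place of 2148 and 1668, and 907 and 2603 between the single drugs in place of 2011 and 1685.

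With 1 array left out the listed genes called ranged over 11 to 20 for Wee1 inhibitor II, 0 to 8 for 17-AAG, 11 to 16 for both drugs, 6 to 10 and 9 to 12 for both drugs against 17-AAG and against Wee1 inhibitor II, 10 to 12 between the single drugs and 3 to 8 for the interaction. For all genes the ranges were 3225 to 4891, 1705 to 3159, 4009 to 5494, 2739 to 3590, 1996 to 2819, 2719 to 3453 and 1350 to 2223. Over genes with a mean signal of at least 100, deviations of same-numbered arrays correlated at -0.137 to 0.096. Those of arrays with different numbers correlated at -0.184 to 0.184. These values do not show how the replicates were made, so a pairing by number is not excluded. With the replicate number as a block, 5 listed genes and 2574 of all genes passed for 17-AAG, and 6 and 1483 for the interaction. In that fit 15 of the 84 calls were lost. Only 2 control arrays and dim signals limit what could be called.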

Other observations

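On control replicate 2, 23 of the 34 genes lay outside the range of the 11 arrays compared. The same share over all genes was not counted, so 23 of 34 is not a trait of these genes. Over all probe sets, the log2 signals of control replicate 2 correlated with the 11 arrays at 0.825 to 0.833. Any pair of the 11 correlated at 0.913 or more. ADM had a signal of 223 there, against 2789 and 2908 on the other control arrays, 12.5-fold below the lower of them. SLC2A3 had 14.8 there, under the medians of the 11 arrays (17.7 to 23.1), against 194 and 200 on the other control arrays. HIF1A was 7124 there, against 3678 to 3713 in control and at most 5159 on any of the 11 arrays.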
